A study of Homo sapiens with 8 samples.

Results

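The genes described here are the NF-kappaB pathway, the TNF response and their chemokines, 40 symbols listed by name. They were chosen with earlier results of these data known, so shares of members called are not those of an unselected list. Of the 40, 27 are pathway components and 13 are induced targets, and both sets are kept apart below. In all, 38 of the 40 were measured among 35113 genes, and NFKBIB and RNF31 were not analysed here. The expression filter left 36 members (25 components and 11 targets) among the 15221 genes tested, because TNF and CCL20 had too few counts.

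RNA was sequenced from 4 groups of head and neck squamous cell carcinoma cells. The HPV- resistant clone and HPV- parental cells are the line UPCISCC89, and the HPV+ resistant clone and HPV+ parental cells are the line UDSCC2. Each resistant group is 1 single-cell clone taken after long exposure to rising cisplatin. The HPV+ line was selected at the higher doses, so dose, donor and HPV status cannot be told apart between the lines, and clonal differences cannot be told apart from resistance within them. Every group had 2 libraries, and whether they were grown as separate cultures is not stated in any source, so the p-values below speak only to the scatter of these libraries, which can be technical.

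NF-kappaB is a family of paired transcription factors that inhibitor proteins, the IkBs, hold in the cytoplasm. Engaged TNF receptor recruits RIPK1, TRAF2 and the ubiquitin ligases BIRC2 and BIRC3, then the linear ubiquitin ligase complex LUBAC, and this scaffold activates the IkB kinases, which mark IkB for destruction. The freed factors induce cytokines, chemokines and adhesion genes together with their own brakes, NFKBIA and TNFAIP3. In squamous carcinoma cells the pathway is known for constant activity and for giving protection from cell death.

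The sequence that these factors read lies just before the start of many of the genes below. The stretches printed here are the 200 bases before the transcription start of 9 members (RefSeq, GRCh38.p14), chosen because they include the inhibitors and targets that the results turn on and the chemokines of one cluster on chromosome 4. Capitals mark matches on either strand to the kappaB consensus of p50-p65 or to the relaxed form GGAANNTCC, which was added after the sequences were seen and can overlap a consensus match.
CXCL1 (chr4:73869193-73869392, plus strand): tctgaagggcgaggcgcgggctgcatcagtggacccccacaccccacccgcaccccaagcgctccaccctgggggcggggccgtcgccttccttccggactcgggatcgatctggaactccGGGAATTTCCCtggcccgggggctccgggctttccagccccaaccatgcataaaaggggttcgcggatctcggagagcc
CXCL2 (chr4:74099196-74099395, minus strand): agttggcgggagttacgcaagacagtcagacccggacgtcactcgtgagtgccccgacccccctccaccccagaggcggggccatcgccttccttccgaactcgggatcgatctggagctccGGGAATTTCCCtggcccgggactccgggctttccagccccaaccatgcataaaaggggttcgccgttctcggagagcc
CXCL3 (chr4:74038690-74038889, minus strand): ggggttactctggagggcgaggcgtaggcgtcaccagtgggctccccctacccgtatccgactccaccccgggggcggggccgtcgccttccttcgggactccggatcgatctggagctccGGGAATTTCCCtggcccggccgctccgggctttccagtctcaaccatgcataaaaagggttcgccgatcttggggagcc
CXCL8 (chr4:73740369-73740568, plus strand): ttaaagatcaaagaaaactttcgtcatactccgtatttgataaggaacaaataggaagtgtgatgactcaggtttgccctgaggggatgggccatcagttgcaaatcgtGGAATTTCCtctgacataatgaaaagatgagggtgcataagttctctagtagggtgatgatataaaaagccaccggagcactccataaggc
NFKBIA (chr14:35404750-35404949, minus strand): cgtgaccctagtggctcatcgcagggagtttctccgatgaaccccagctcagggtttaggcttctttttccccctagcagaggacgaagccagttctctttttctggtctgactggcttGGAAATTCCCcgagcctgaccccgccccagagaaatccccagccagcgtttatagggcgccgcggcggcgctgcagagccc
TNFAIP3 (chr6:137867059-137867258, plus strand): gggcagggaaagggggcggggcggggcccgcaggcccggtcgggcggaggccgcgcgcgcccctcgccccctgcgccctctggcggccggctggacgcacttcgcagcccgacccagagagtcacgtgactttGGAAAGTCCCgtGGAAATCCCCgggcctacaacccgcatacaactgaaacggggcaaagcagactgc
IL6 (chr7:22727000-22727199, plus strand): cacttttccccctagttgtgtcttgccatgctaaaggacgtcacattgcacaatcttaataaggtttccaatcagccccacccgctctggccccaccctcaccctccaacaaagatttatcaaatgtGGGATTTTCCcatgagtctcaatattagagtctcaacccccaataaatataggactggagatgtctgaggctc
ICAM1 (chr19:10270920-10271119, plus strand): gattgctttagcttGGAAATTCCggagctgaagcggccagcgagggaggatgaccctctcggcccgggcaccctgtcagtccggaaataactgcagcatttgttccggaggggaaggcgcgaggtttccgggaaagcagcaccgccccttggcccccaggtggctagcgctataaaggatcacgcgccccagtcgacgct
TNFAIP2 (chr14:103123261-103123460, plus strand): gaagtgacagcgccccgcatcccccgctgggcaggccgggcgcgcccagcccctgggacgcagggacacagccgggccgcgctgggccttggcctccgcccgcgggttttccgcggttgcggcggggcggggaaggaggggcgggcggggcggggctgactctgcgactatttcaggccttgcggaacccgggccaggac
CXCL1 and CXCL3 carried the same capitals with the first base 79 bases before the start, and CXCL2 carried them 78 bases before it. Over the last 100 bases CXCL1 was identical to CXCL3 at 90 positions and to CXCL2 at 73. TNFAIP3 held consensus matches starting 67 and 55 bases before its start, NFKBIA held 1 at 81 bases and IL6 held 1 at 73 bases. CXCL8 and ICAM1 matched only the relaxed form, at 91 and 186 bases. TNFAIP2 matched neither form in this window, and RBCK1 did not either.

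Windows of 300 bases (250 before and 50 after the start) were listed for 20 of the measured components and 11 of the measured targets. Either form was found in 11 of the 20 components and 9 of the 11 targets, counting a gene once over all its listed starts. CSF2 and TRAF1, like CXCL8 and ICAM1, were counted through the relaxed form alone. Among 34796 promoters of this length, 11.3% held the consensus, 4.56% the relaxed form and 13.6% either. Those shares are per single promoter, while the 20 components had 36 windows and the 11 targets 12, so the measures are unlike. The AP-1 motif TGANTCA was in 7.73% of those promoters and, among the members, only in CXCL8 and IKBKG. A match describes letters and is neither a bound site nor a cause of any value below.

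Libraries held 20250246 to 27341284 read pairs, the deposited estimated counts, which were summed per gene. All 15 squamous epithelial markers reached 1 CPM in every library, where CPM is the read count scaled by TMM-adjusted library size. The HPV- resistant clone had 8 of the 15 called lower (5.22% of all genes were) and 1 called higher (6.06%). The HPV+ resistant clone had 1 called lower (4.60% of all genes were) and 4 called higher (3.40%). Their summed level was 6047 and 7480 CPM in the HPV- resistant clone and 24830 to 25810 CPM in HPV- parental cells, and 8142 to 9470 CPM in the HPV+ resistant clone and 7631 to 8044 CPM in HPV+ parental cells. Of 17 leukocyte markers, 9, 7, 12 and 10 were at 0 counts in the HPV- resistant, HPV- parental, HPV+ resistant and HPV+ parental groups, CD3D, CD163 and TYROBP in all of them. Most of the leukocyte sum in the HPV- line was CD68 and CD14, at 33.4 and 66.0 CPM and at 19.4 and 12.8 CPM in the HPV- resistant libraries, against 155 and 150 CPM and 7.26 and 3.92 CPM in the HPV- parental libraries. Summed fibroblast markers were 12.6 to 13.1 CPM in the HPV- resistant clone and 5.23 to 5.59 CPM in HPV- parental cells. In the HPV+ line they were 1452 and 3221 CPM in the resistant clone and 3069 to 3392 CPM in parental cells, most of it COL3A1. PDGFRB was at 0 counts in both HPV+ groups, and PDGFRA held 0 counts in the HPV+ resistant clone and 3 in HPV+ parental cells. FAP held 28 and 88 counts in the same order, against 0 in both HPV- groups. Of the 7 fibroblast markers tested, 2 were called lower in the HPV+ clone (4.60% of all genes were) and 0 higher (3.40%). LUM measured 91.0 and 65.8 CPM in the HPV+ resistant clone, against 241 and 290 CPM in HPV+ parental cells, and DCN measured 43.6 and 20.03 CPM, against 99.4 and 120 CPM (log2 fold changes -1.76 and -1.78). The part of these markers in any result was not tested. In bulk RNA, fewer cells that express a gene and less RNA per cell cannot be told apart.

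Pathway components were called in the HPV+ clone but not in the HPV- clone. With edgeR's quasi-likelihood test, a gene was called at a Benjamini-Hochberg adjusted p below 0.05 over all genes tested and an absolute log2 fold change above 1. None of the 25 components was called in the HPV- resistant against HPV- parental comparison, where 11.3% of all genes were. At an unadjusted p below 0.05, which 39.2% of all genes reached, there were 5 higher and 4 lower, and DESeq2 also called 0. The median log2 fold change of the components was -0.015, beside 0.04 over all genes tested. In the HPV+ resistant clone 4 of 25 components were called, against 8.0% of all genes. RBCK1, TNFAIP3 and NFKBIZ rose and NFKBIA fell, and the median was -0.03, beside 0.00 over all genes tested. Leaving out the 1 component whose HPV+ groups both held 3 counts or fewer put that median at -0.003. The contrast in calls rests on the minimum fold change. At an adjusted p below 0.05 alone there were 4 components higher and 2 lower in the HPV- clone, beside 1942 and 2139 of all 15221 genes. In the HPV+ clone there were 3 higher and 4 lower, beside 1164 and 1595.

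**Figure D1:**
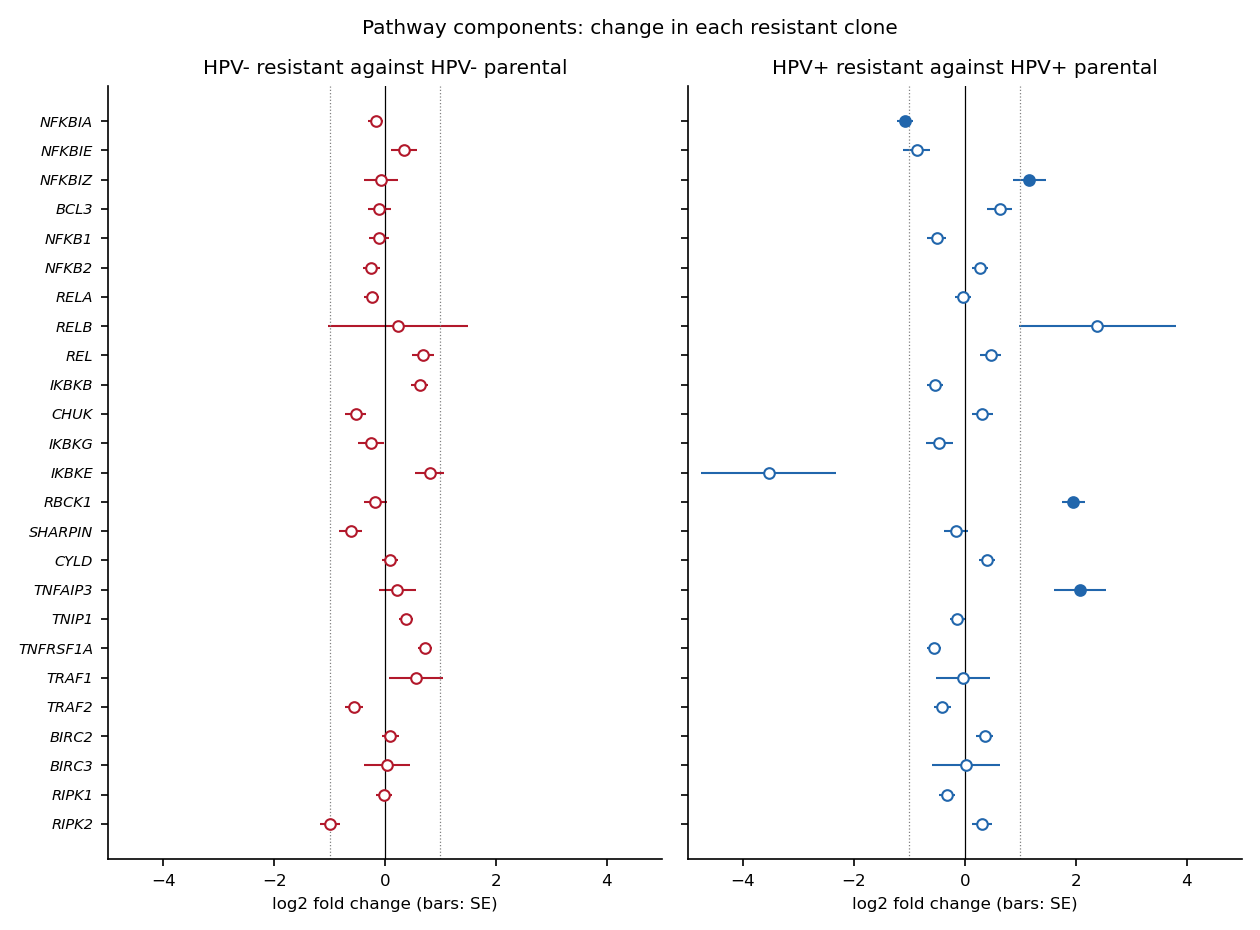
Log2 fold change of the 25 tested pathway components in the HPV- clone (left) and the HPV+ clone (right), each against its parental cells, where points are edgeR estimates, bars are the SE, filled points were called and dotted lines mark a log2 fold change of 1 in either direction. No HPV- point is filled, the filled HPV+ points are NFKBIA below 0 and NFKBIZ, RBCK1 and TNFAIP3 above it, and the IKBKE value on the right comes from 0 and 3 counts.

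Several components at the top of the pathway had moderate changes of opposite sign in the clones. TNFRSF1A (chr12:6328757-6342114) encodes TNF receptor 1, the main receptor for soluble TNF. It measured 282 and 297 CPM in the HPV- resistant clone, against 173 and 179 CPM in HPV- parental cells. In the HPV+ line it measured 64.3 and 64.6 CPM in the resistant clone, against 90.7 and 98.4 CPM in parental cells. Resistant libraries were thus all higher in the HPV- line and all lower in the HPV+ line, with no overlap. The log2 fold changes were 0.72 ± 0.13 (SE; edgeR adjusted p = 0.00315) and -0.55 ± 0.13 (adjusted p = 0.0163), each under the minimum of 1. By edgeR the difference between the lines, the HPV+ change minus the HPV- change, was called at -1.27 ± 0.18 (adjusted p = 0.00148). Among the 20 tested genes nearest to TNFRSF1A, 4 were called lower (CD9, SCNN1A, TAPBPL and VAMP1, at -6.97, -5.01, -3.05 and -1.69) and 1 higher for the same difference, with a median of -0.27. In all, 5 of 25 components were called for this difference, 2 higher and 3 lower, beside 11.7% of all genes tested (5.17% higher and 6.57% lower), and their median difference was 0.16, beside -0.03 over all genes tested. Without HPV- parental replicate 2 the number was 3.

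IKBKB (chr8:42271302-42332460) encodes IKK-beta, the kinase that phosphorylates IkB-alpha in the canonical pathway. It measured 45.4 and 48.0 CPM in the HPV- resistant clone, against 32.6 and 28.0 CPM in HPV- parental cells. The HPV+ values were 32.6 and 39.9 CPM in the resistant clone, against 52.9 and 52.2 CPM in parental cells. As with TNFRSF1A, the clone was above its parental cells in the HPV- line and below them in the HPV+ line. By edgeR the difference was -1.16 ± 0.215 (adjusted p = 0.00534), made of a change of 0.625 ± 0.153 in the HPV- line and -0.54 ± 0.15 in the HPV+ line. Without HPV- parental replicate 2 it was -0.99, under the minimum, and an offset for transcript length gave -0.94 (adjusted p = 0.0665). About 15.4 to 39.3% of IKBKB counts were assigned to 1 retained-intron transcript.

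RIPK2 (chr8:89757806-89791064), the kinase that couples NOD receptors to LUBAC and the IkB kinases, had the opposite pattern. It measured 17.5 and 18.3 CPM in the HPV- resistant clone, against 30.3 and 40.7 CPM in HPV- parental cells. The HPV+ resistant clone had 16.1 and 18.0 CPM, against 13.1 and 14.5 CPM in HPV+ parental cells. Here the HPV- clone was the lower and the HPV+ clone the higher of each pair, and the edgeR difference was called at 1.30 ± 0.26 (adjusted p = 0.00793). The HPV- change alone, -0.99 ± 0.19 (adjusted p = 0.00393), sat at the minimum fold change. It was called when HPV- parental replicate 1 was left out (-1.195), as it was for HPV- resistant replicate 2 (-1.03) and HPV+ parental replicate 1 (-1.04). Among the 20 tested genes nearest to RIPK2 on its chromosome, 7 were called higher and 1 lower for the same difference, with a median of 0.785. RIPK2-204, annotated as a target of nonsense-mediated decay, held 33.0 to 67.5% of RIPK2 counts. The coding RIPK2-201 held 215 and 191 counts in the HPV- resistant clone, against 225 and 494 in HPV- parental cells. In the HPV+ line it held 272 and 232 counts in the resistant clone, against 108 and 154 in parental cells.

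**Figure D2:**
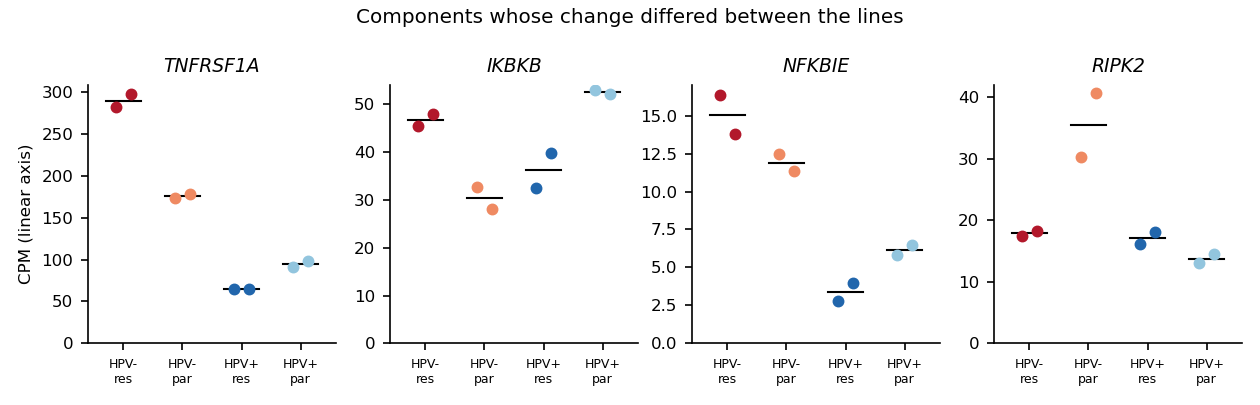
CPM of TNFRSF1A, IKBKB, NFKBIE and RIPK2 in the 8 libraries on a linear axis from 0. Points are libraries, black lines are means of 2, and groups run from the HPV- resistant clone (res) and HPV- parental cells (par) to the HPV+ resistant clone and HPV+ parental cells. TNFRSF1A, IKBKB and NFKBIE are higher in the clone than in parental cells in the HPV- line and lower in the HPV+ line, and RIPK2 runs the other way.

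The rest of the receptor complex was not called in either clone or for the difference. These genes were TRAF1 and TRAF2, which are adaptors, BIRC2 and BIRC3, the ubiquitin ligases cIAP1 and cIAP2, and RIPK1, the scaffold kinase. TRAF2 measured 30.2 and 31.2 CPM in the HPV- resistant clone, against 50.8 and 40.1 CPM in HPV- parental cells, a log2 fold change of -0.57 (edgeR adjusted p = 0.0269). Log2 fold changes of the other 4 ran from -0.015 to 0.56 in the HPV- line, where RIPK1 was lowest and TRAF1 highest. In the HPV+ line those 4 ran from -0.32 for RIPK1 to 0.36 for BIRC2. TRAF2 there measured 31.4 and 37.6 CPM in the resistant clone, against 47.0 and 44.1 CPM in parental cells (-0.40, edgeR adjusted p = 0.11). By value TRAF2 was thus lower in the clone in both lines.

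The remaining IkB kinases were not called in either clone. CHUK encodes IKK-alpha, IKBKG the scaffold NEMO and IKBKE the related kinase IKK-epsilon. CHUK had log2 fold changes of -0.53 in the HPV- line and 0.32 in the HPV+ line, and the difference of 0.85 (edgeR adjusted p = 0.0481) was under the minimum. That difference was called at 1.07 without HPV- parental replicate 1 and at 1.01 without HPV+ resistant replicate 1. IKBKE measured 14.4 and 15.3 CPM in the HPV- resistant clone, against 9.08 and 7.89 CPM in HPV- parental cells (log2 fold change 0.81, adjusted p = 0.0469). In the HPV+ line it held 0 counts in the resistant clone and 3 in parental cells, which allows no fold. IKBKE was therefore near absent from both HPV+ groups and present in both HPV- groups.

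RBCK1 rose in the HPV+ clone and had the smallest adjusted p of any component there. It encodes HOIL-1, the LUBAC subunit that binds linear ubiquitin and adds ester-linked ubiquitin, and lies at chr20:407498-432139. It measured 712 and 895 CPM in the HPV+ resistant clone, against 200 and 215 CPM in HPV+ parental cells. HPV- values were 132 and 199 CPM in the resistant clone, against 200 and 174 CPM in parental cells. Only the HPV+ clone stood apart, while the HPV- groups overlapped. RBCK1 was 3.88-fold higher in the HPV+ clone (log2 fold change 1.95 ± 0.21, edgeR adjusted p = 0.000375), with -0.18 ± 0.20 in the HPV- clone and a called difference of 2.13 ± 0.29 (adjusted p = 0.00115). Both calls held under every alternative run.

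SHARPIN, the other measured LUBAC subunit, was not called in either clone. Compared per length, in TPM, RBCK1 was 20.3 and 20.2 times SHARPIN in the HPV+ resistant libraries, against 3.51 and 4.63 times in HPV+ parental cells. The HPV- ratio was 2.26 and 2.52 in the resistant clone, against 1.72 and 2.26 in parental cells. SHARPIN itself had a log2 fold change of -0.16 ± 0.21 in the HPV+ line and -0.62 ± 0.21 in the HPV- line, neither called. HOIP, the catalytic subunit that RNF31 encodes, was not analysed here.

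Several RBCK1 transcripts and some of its neighbours were higher in the HPV+ clone. The leading coding transcript, RBCK1-213, held 35.3 and 36.7% of RBCK1 counts in the HPV+ resistant libraries, against 25.6 and 31.1% in HPV+ parental cells. RBCK1-204, annotated as a target of nonsense-mediated decay, held 7.85 and 5.57%, against 22.4 and 22.7%. So the leading coding form had a larger share of the counts in the clone and the decay form a smaller one. Only 14 of the 20 transcripts annotated for RBCK1 were listed, which limits these shares. The genes on either side, TRIB3 and TBC1D20, were called too, with log2 fold changes of 1.37 and 1.14. TRIB3 encodes a pseudokinase of the stress response. Over the 15 tested genes listed around RBCK1 the median was 0.40, with 2 called higher and 1 lower, and whether the region as a whole moved was not tested.

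**Figure D3:**
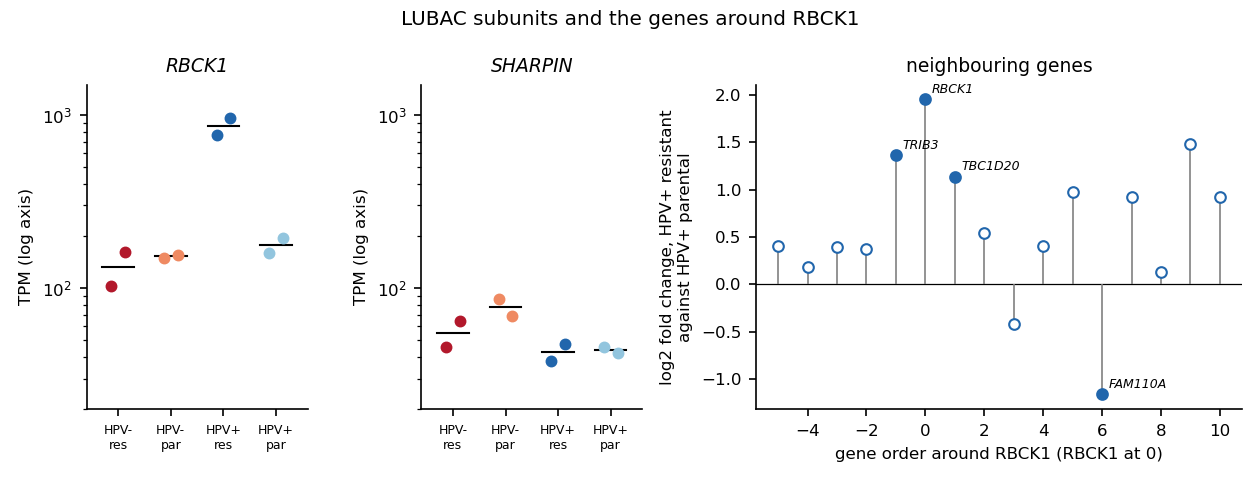
TPM of RBCK1 and SHARPIN in the 8 libraries (left and middle, log axis, points are libraries and black lines means of 2), and the log2 fold change of RBCK1 and the 15 tested genes around it in the HPV+ clone (right, in gene order, filled points were called). RBCK1 is at 20 times SHARPIN in the HPV+ resistant libraries, and its immediate neighbours TRIB3 and TBC1D20 also lie above 1.

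TNFAIP3, the deubiquitinase A20 that shuts the pathway off, was scarce in the HPV+ line. It measured 3.05 and 2.83 CPM in the HPV+ resistant clone (77 and 73 counts), against 0.24 and 1.13 CPM in HPV+ parental cells (6 and 30 counts). The HPV- values were 59.7 and 44.7 CPM in the resistant clone, against 40.9 and 48.6 CPM in parental cells. TNFAIP3 rose in the HPV+ clone by 2.08 ± 0.47 on the log2 scale (edgeR adjusted p = 0.0184), to a level still far under either HPV- group. That call was lost without either HPV+ resistant library (adjusted p = 0.0798 without replicate 1 and 0.0745 without replicate 2). With an offset for transcript length it was 0.45 (adjusted p = 0.576). The difference of 1.86 between the lines was not called (adjusted p = 0.0607), but it was by DESeq2, at 1.90, and without HPV+ parental replicate 2, at 3.39. HPV+ parental replicate 1 had 71.7% of its few counts on TNFAIP3-206, a transcript with 0 counts in the other HPV+ libraries. CYLD, another deubiquitinase, and TNIP1, an adaptor of A20, were not called, with log2 fold changes between -0.135 and 0.40 in the 2 clones.

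Of the 4 measured IkB genes, 2 were called in the HPV+ clone and 0 in the HPV- clone, beside 8.0% and 11.3% of all genes. NFKBIA (chr14:35401079-35404749) encodes IkB-alpha, the inhibitor whose promoter is shown above. It measured 13.7 and 13.5 CPM in the HPV+ resistant clone, against 27.7 and 29.6 CPM in HPV+ parental cells. The HPV- resistant clone had 153 and 142 CPM, against 179 and 154 CPM in HPV- parental cells. Both HPV+ resistant libraries were below both HPV+ parental ones, and all HPV- libraries were several times higher. NFKBIA fell by 1.07 on the log2 scale in the HPV+ clone (SE 0.14, edgeR adjusted p = 0.00119), and its difference between the lines, -0.90 ± 0.20 (adjusted p = 0.0115), was under the minimum. That difference was called at -1.003 without HPV- parental replicate 1, and with a length offset the HPV+ change was -0.95, just under the minimum. NFKBIA had 10 of its 21 annotated transcripts listed, of which the main coding one took 86.5 to 97.4% of the counts.

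NFKBIE encodes IkB-epsilon, an inhibitor that acts later in the response. It measured 2.78 and 3.99 CPM in the HPV+ resistant clone, against 5.82 and 6.49 CPM in HPV+ parental cells. The HPV- resistant clone had 16.4 and 13.8 CPM, against 12.5 and 11.4 CPM in HPV- parental cells. Its HPV+ change was -0.86 ± 0.24 (edgeR adjusted p = 0.0352), under the minimum, and the difference between the lines was called at -1.20 ± 0.34 (adjusted p = 0.0352). NFKBIE-204 held 100% of NFKBIE counts in HPV+ resistant replicate 1 and 0% in replicate 2, and 37.2 and 83.2% in HPV+ parental cells. The transcript assignment was thus not stable in the HPV+ line. The difference was lost when any of 6 libraries was left out, with adjusted p between 0.0537 (HPV- resistant replicate 2) and 0.133 (HPV+ parental replicate 2). The 6 also included HPV- parental replicate 2, HPV- resistant replicate 1, HPV+ parental replicate 1 and HPV+ resistant replicate 1, at 0.0818, 0.106, 0.105 and 0.104. The HPV+ change was called at -1.15 without HPV+ resistant replicate 2.

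NFKBIZ encodes IkB-zeta, a nuclear member that helps to induce IL6 and lipocalin genes, and it rose in the HPV+ clone. It measured 22.5 and 29.4 CPM in the HPV+ resistant clone, against 13.9 and 9.25 CPM in HPV+ parental cells, with no overlap. HPV- groups overlapped, at 15.7 and 8.33 CPM in the resistant clone and 12.7 and 12.6 CPM in parental cells. The HPV+ change was 1.16 ± 0.30 (edgeR adjusted p = 0.0267). It was lost without HPV+ parental replicate 1 or 2 or HPV+ resistant replicate 2, at adjusted p of 0.0669, 0.179 and 0.141. The difference between the lines, 1.24 (adjusted p = 0.0782), was not called, though it was at 1.76 without HPV- resistant replicate 1. In HPV+ resistant replicate 1, 77.9% of NFKBIZ counts lay on NFKBIZ-203, against 0% in replicate 2, so the transcript assignment was not stable. BCL3, another nuclear IkB, was not called in either clone, at -0.10 in the HPV- line and 0.63 in the HPV+ line.

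No NF-kappaB subunit was called in either clone. RELA (p65), NFKB1 (p105/p50), NFKB2 (p100/p52), REL and RELB form the dimers. Per length, RELA made up 56.0% of the summed subunit TPM in the HPV- resistant clone and 57.0% in HPV- parental cells, and 42.5% in the HPV+ resistant clone and 44.4% in HPV+ parental cells (means of 2). NFKB1 held 18.8 and 17.1% in the HPV- groups and 28.9 and 34.5% in the HPV+ groups, resistant first in each pair. RELA was thus the highest subunit in all 4 groups, and NFKB1 came next in each but HPV- parental cells. There NFKB2 measured 26.9 and 17.4 TPM and NFKB1 14.5 and 24.0 TPM in the 2 libraries, so their order differed between replicates. REL had the largest HPV- change, at 96.5 and 76.8 CPM in the resistant clone, against 43.4 and 64.3 CPM in parental cells (log2 fold change 0.69, edgeR adjusted p = 0.0259). In the HPV+ line REL was also higher by value, at 58.6 and 66.6 CPM in the resistant clone, against 44.5 and 46.1 CPM in parental cells (0.47, adjusted p = 0.123). RELB, the partner of p52, had 71 and 6 counts in the HPV+ resistant clone, against 0 and 15 in HPV+ parental cells, and its groups overlapped. For NFKB1, NFKB2 and REL the files list 13 of 25, 11 of 20 and 3 of 8 annotated transcripts, so their levels may be incomplete.

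**Figure D4:**
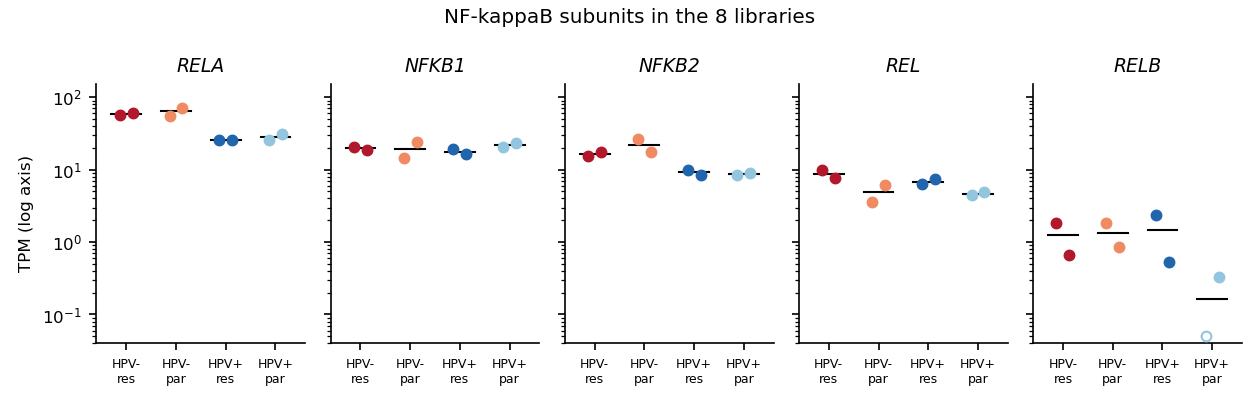
TPM of the 5 NF-kappaB subunits in the 8 libraries on a log axis. Points are libraries, black lines are means of 2, and a library below 0.05 TPM is an open circle at that level. RELA is the highest subunit in every group, and for RELA, NFKB1 and NFKB2 the clones overlap or lie near their parental cells. REL is above parental cells in both clones, and RELB scatters widely between libraries.

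Induced targets changed in both clones, and TNFAIP2 was the only one called in both. In the HPV- resistant clone 4 of 11 tested targets were called, beside 11.3% of all genes. CSF1, TNFAIP2 and ICAM1 rose and IL6 fell, and the median was 0.20, beside 0.04 over all genes. IL6 and the uncalled CSF2 passed the expression filter only through HPV- parental cells, which in part fixed their direction here. In the HPV+ resistant clone 3 of 11 were called, beside 8.0% of all genes. TNFAIP2 and LIF rose and CXCL8 fell. The HPV+ median was 0.00 over the 11, and 0.91 over the 6 left after setting aside 5 targets whose HPV+ groups both held 3 counts or fewer. That 0.91 is the midpoint of CXCL3 (0.475, 7 against 5 counts) and CXCL2 (1.35, 8 against 3 counts), neither called. It therefore rests on few counts, and the 6 values ran from -3.02 for CXCL8 to 1.975 for TNFAIP2. The HPV+ number was 1 without HPV+ parental replicate 1 or HPV+ resistant replicate 2, and leaving out HPV+ parental replicate 2 gave 0. A mean of 1 CPM or more was reached by 6 of 13 targets in the HPV- resistant clone and 7 in HPV- parental cells, against 1 in the HPV+ resistant clone and 1 in HPV+ parental cells.

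**Figure D5:**
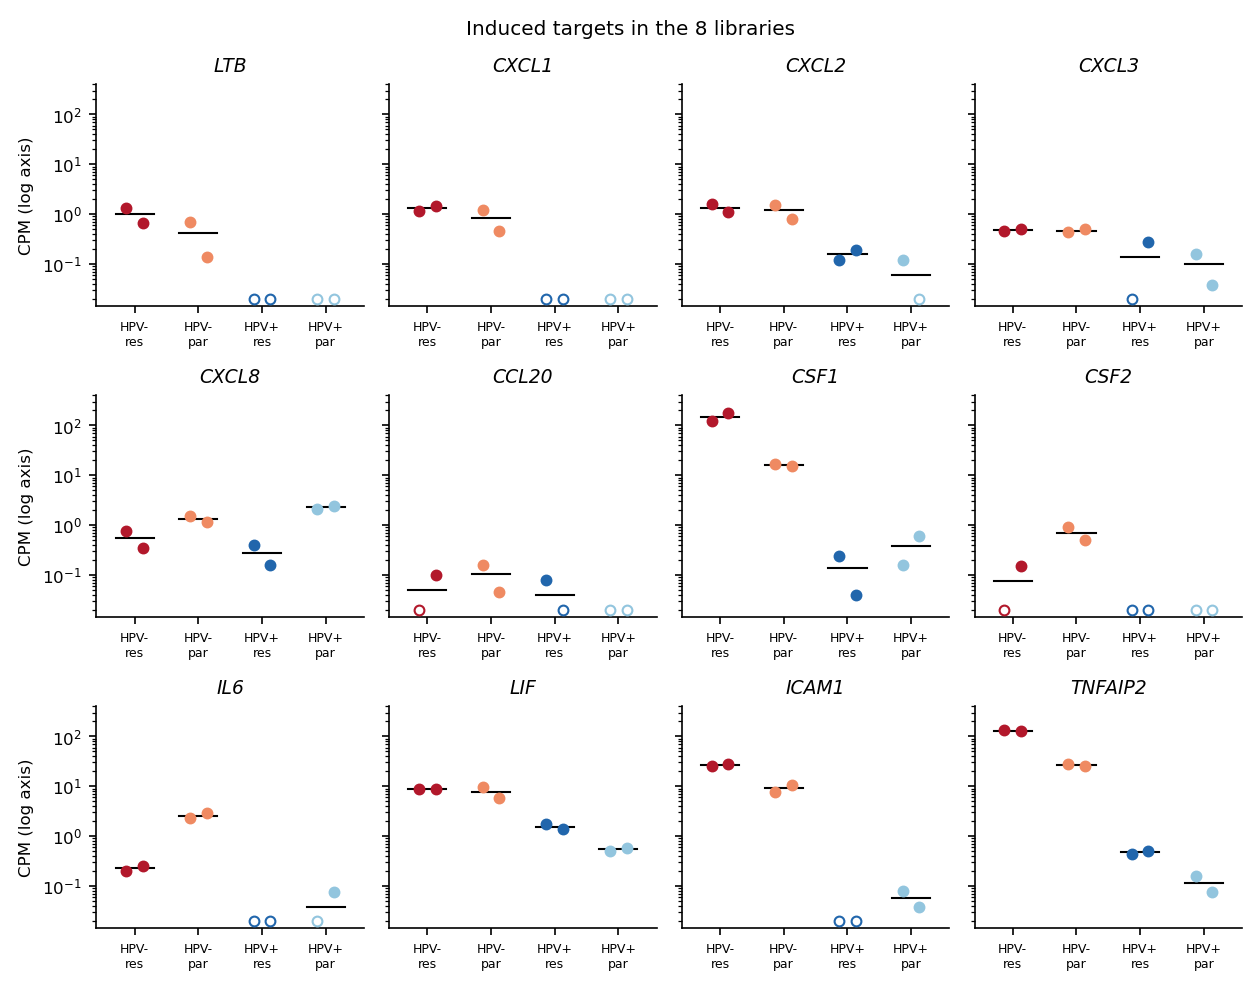
CPM of 12 induced targets in the 8 libraries on a shared log axis, with TNF left out because it had 0 counts throughout. Points are libraries, black lines are means of 2, and a library below 0.02 CPM is an open circle at that level. CSF1, TNFAIP2 and ICAM1 are highest in the HPV- resistant clone (res), IL6 is lower there than in HPV- parental cells (par), and most HPV+ values lie below 1 CPM.

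CSF1 (chr1:109910242-109930992) encodes macrophage colony-stimulating factor, the growth factor of monocytes and macrophages, and had the largest rise of any member. It measured 120 and 182 CPM in the HPV- resistant clone, against 16.9 and 15.3 CPM in HPV- parental cells. The HPV+ resistant clone had 0.24 and 0.04 CPM (6 and 1 counts), against 0.16 and 0.60 CPM in HPV+ parental cells (4 and 16 counts), and these overlapped. CSF1 was 9.38-fold higher in the HPV- clone (log2 fold change 3.23 ± 0.32, edgeR adjusted p = 0.000349), and this held under every alternative run. The difference between the lines was called at -4.68 ± 0.91 (adjusted p = 0.00931). It was lost without HPV+ parental replicate 2, at -3.42 (adjusted p = 0.13). In the HPV- line 80.2 to 88.4% of CSF1 counts lay on a single coding transcript, CSF1-201. CSF1R, its receptor and one of the leukocyte markers, stayed under 0.43 CPM in every library.

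TNFAIP2, first found as a TNF-induced gene of endothelial cells, was the member called in both clones. It measured 135 and 126 CPM in the HPV- resistant clone, against 28.4 and 25.8 CPM in HPV- parental cells. In the HPV+ line it measured 0.44 and 0.50 CPM in the resistant clone (11 and 13 counts), against 0.16 and 0.08 CPM in parental cells (4 and 2 counts). Resistant libraries were above parental ones in each line, though the HPV+ values rest on few counts. The log2 fold changes were 2.27 ± 0.15 (edgeR adjusted p = 1.83e-05) and 1.975 ± 0.421 (adjusted p = 0.0109), and the difference of -0.29 ± 0.60 was not called. The HPV+ call was lost without HPV+ parental replicate 2 or HPV+ resistant replicate 2, at adjusted p of 0.147 and 0.0727, and with the 4 HPV+ libraries fitted alone, at 0.101. Among its 20 nearest tested genes, the median HPV+ change was 0.48, with 2 called higher and 0 lower, and the median HPV- change was -0.015.

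ICAM1 (chr19:10271093-10286615), the adhesion molecule that leukocyte integrins bind, rose in the HPV- clone. It measured 25.5 and 28.2 CPM in the HPV- resistant clone, against 7.80 and 10.4 CPM in HPV- parental cells, with no overlap. The change was 1.56 ± 0.24 on the log2 scale (edgeR adjusted p = 0.00202). ICAM1 in the HPV+ line held 0 counts in the resistant clone and 3 in parental cells, which allows no fold. The called difference between the lines, -5.10 ± 1.32 (adjusted p = 0.033), rests on those 3 counts. It was lost without either HPV- resistant library (adjusted p = 0.05 and 0.0544), either HPV+ parental library (0.229 and 0.0585) or either HPV+ resistant library (0.111 and 0.117), replicate 1 first in each pair. Together, 2 of 11 targets were called for the difference, CSF1 and ICAM1, beside 11.7% of all genes tested. Both passed the expression filter only through the HPV- groups, so that number was in part fixed. The median difference over the 11 targets was -0.29, beside -0.03 over all genes tested. The number was 1 without HPV- resistant replicate 1 or 2, HPV+ parental replicate 1 or HPV+ resistant replicate 1 or 2, and leaving out HPV+ parental replicate 2 gave 0.

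IL6 (chr7:22725884-22732002), the inflammatory cytokine, fell in the HPV- clone while the 3 targets above rose. It measured 0.20 and 0.25 CPM in the HPV- resistant clone (4 and 5 counts), against 2.30 and 2.84 CPM in HPV- parental cells (43 and 63 counts). Both resistant libraries were well below both parental ones. IL6 fell by 3.48 on the log2 scale (SE 0.78, edgeR adjusted p = 0.0106). It passed the expression filter only through HPV- parental cells, where it was high, so the direction of this change was in part fixed. The call was lost without HPV- parental replicate 2, HPV- resistant replicate 1 or HPV- resistant replicate 2, at adjusted p of 0.0592, 0.0893 and 0.0622. IL6 in the HPV+ line had 0 counts in the resistant clone and 2 in parental cells. CSF2, which encodes GM-CSF, had 0 and 3 counts in the HPV- resistant clone, against 17 and 11 in HPV- parental cells. That is 0.11 times the parental level (exact 95% counting interval 0.0214 to 0.355), but edgeR did not call it (adjusted p = 0.0955), and it had 0 counts in the HPV+ line.

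LIF encodes leukaemia inhibitory factor, a cytokine of the IL6 family. It measured 1.75 and 1.36 CPM in the HPV+ resistant clone (44 and 35 counts), against 0.51 and 0.57 CPM in HPV+ parental cells (13 and 15 counts). In the HPV- line the resistant libraries, at 8.81 and 8.63 CPM, lay between the parental ones at 9.56 and 5.68 CPM. LIF rose in the HPV+ clone by 1.515 ± 0.38 on the log2 scale (edgeR adjusted p = 0.0218). This was lost without HPV+ parental replicate 1 or 2 or HPV+ resistant replicate 1, at adjusted p of 0.16, 0.106 and 0.098. The difference between the lines of 1.32 was not called (adjusted p = 0.0948), though it was at 1.71 without HPV- parental replicate 2.

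The chemokines of chromosome 4, whose promoters are shown above, were scarce in all 8 libraries and only CXCL8 was called in a clone. CXCL8, the neutrophil chemokine interleukin 8, measured 0.40 and 0.16 CPM in the HPV+ resistant clone (10 and 4 counts), against 2.08 and 2.45 CPM in HPV+ parental cells (53 and 65 counts). It fell by 3.02 on the log2 scale (SE 0.63, edgeR adjusted p = 0.00991), and was lost without HPV+ parental replicate 1 or 2 or HPV+ resistant replicate 2, at adjusted p of 0.0612, 0.068 and 0.0566. In the HPV- line CXCL8 measured 0.76 and 0.35 CPM in the resistant clone, against 1.55 and 1.13 CPM in parental cells (log2 fold change -1.27, adjusted p = 0.148). CXCL8 was the lower in the clone in both lines by value, and the HPV+ line alone passed the test. The difference of -1.75 between the lines was not called (adjusted p = 0.199).

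CXCL1, CXCL2 and CXCL3, which share the promoter stretch shown, also attract neutrophils and were not called in either clone. CXCL1 measured 1.16 and 1.45 CPM in the HPV- resistant clone, against 1.23 and 0.45 CPM in HPV- parental cells, and had 0 counts in the HPV+ line. CXCL2 measured 1.56 and 1.10 CPM in the HPV- resistant clone, against 1.55 and 0.81 CPM in HPV- parental cells. CXCL3 stayed between 0.43 and 0.50 CPM in the HPV- libraries. All 3 overlapped or lay close between resistant and parental cells. In the HPV+ line CXCL2 had 8 counts in the resistant clone and 3 in parental cells, a ratio of 2.71 with an exact 95% counting interval of 0.651 to 15.9. Reads shared between these similar genes could be split between them, so each value is uncertain. CCL20, which draws memory lymphocytes and dendritic cells, had 2 counts in the HPV- resistant clone and 4 in HPV- parental cells, and 2 and 0 counts in the HPV+ resistant clone and HPV+ parental cells. LTB, the membrane-bound lymphotoxin, measured 1.31 and 0.65 CPM in the HPV- resistant clone, against 0.69 and 0.14 CPM in HPV- parental cells, and was not called. TNF itself was listed at 0 counts in every library, with 1 of its 2 annotated transcripts in the files. IER3, another gene that TNF induces, had 0 to 2 counts in every group. Counting intervals and floors cover counting error only.

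The 2 parental lines differed far more than either clone did from its parental cells. In HPV+ parental against HPV- parental cells, 9 of 11 targets and 10 of 25 components were called, all lower in the HPV+ line, where 37.0% of all genes were called and 19.3% were called lower. The medians were -5.88 for the targets and -0.93 for the components, beside -0.003 over all genes tested. With 3 targets that had 0 counts in HPV+ parental cells set at their bound, the target median was -3.81. LTB, CXCL1, CSF2, IL6 and ICAM1 had 0 to 3 counts in each HPV+ group, so these passed the expression filter only through the HPV- line, IL6 and CSF2 through its parental cells alone. CSF1, CXCL2 and CXCL3 also passed only through the HPV- line, at 7, 8 and 7 counts in the HPV+ resistant clone and 20, 3 and 5 in HPV+ parental cells. Among the components the same held for BIRC3, at 9 counts in each HPV+ group, and IKBKE, at 0 and 3 counts. This in part fixed the counts called in both sets and the target median. Donor, HPV status and culture cannot be told apart here.

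Among the components called between the parental lines were brakes, a ligase and a kinase. TNFAIP3 averaged 0.68 ± 0.63 CPM in HPV+ parental cells and 44.8 ± 5.4 CPM in HPV- parental cells (SD, n = 2 each). BIRC3 averaged 0.17 ± 0.02 CPM in HPV+ parental cells and 2.79 ± 0.39 CPM in HPV- parental cells, and NFKBIA averaged 28.6 ± 1.3 CPM and 166 ± 18 CPM in the same order. IKBKE, at 3 counts in HPV+ parental cells and 345 in HPV- parental cells, had a ratio of 0.00685 (exact 95% counting interval 0.00141 to 0.0202). The other components called lower were NFKB2, BCL3, RIPK2, RELA, BIRC2 and SHARPIN, with log2 fold changes from -1.73 for NFKB2 to -1.003 for SHARPIN. SHARPIN passed the minimum only narrowly and was lost without HPV- parental replicate 1, at -0.78, or HPV+ parental replicate 2, at -0.875. NFKB1, REL and RBCK1 were not called between the parental lines, at 0.05, -0.25 and 0.15.

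The targets called lower in HPV+ parental cells spanned adhesion, cytokine and chemokine genes. TNFAIP2 averaged 0.12 ± 0.06 CPM in HPV+ parental cells and 27.1 ± 1.8 CPM in HPV- parental cells, a log2 fold change of -7.81 ± 0.26 (edgeR adjusted p = 1.86e-08). ICAM1 held 3 counts in HPV+ parental cells and 376 in HPV- parental cells, a ratio of 0.00628 (exact 95% counting interval 0.00129 to 0.0185). CSF1 and LIF were lower in HPV+ parental cells by 5.37 and 3.81 on the log2 scale. Those 4 therefore included all the targets that rose in either clone. IL6 and CXCL2 had ratios of 0.0149 (interval 0.00178 to 0.055) and 0.0503 (interval 0.01 to 0.156). CXCL1, CSF2 and LTB had 0 counts in HPV+ parental cells and were at least 14.0-fold, 11.8-fold and 6.77-fold lower there, with 3 counts over the group as the floor. The CSF2 call was lost without HPV+ parental replicate 1 or 2, at adjusted p of 0.0637 and 0.0625, and that of LTB without HPV- parental replicate 1 or HPV+ parental replicate 1 or 2, at 0.11, 0.073 and 0.071. The other 2 targets were not called. CXCL3 had 5 counts in HPV+ parental cells and 19 in HPV- parental cells (log2 fold change -2.20, edgeR adjusted p = 0.126). CXCL8 stood at 2.27 ± 0.26 CPM in HPV+ parental cells and 1.34 ± 0.30 CPM in HPV- parental cells (log2 fold change 0.76, adjusted p = 0.264).

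Other genes of the pathway, 108 from a list of receptors, adaptors, regulators and induced genes, give the wider setting, and 96 were tested. In the HPV- resistant clone 11 were called higher (6.06% of all genes were) and 13 lower (5.22%). In the HPV+ resistant clone 11 were called higher (3.40%) and 5 lower (4.60%). Their medians were 0.01 and 0.07, so the list as a whole was centred near 0 in both clones. Of the 33 tested induced genes in the list, 16 were called in the HPV- clone (7 higher, 9 lower), beside 11.3% of all genes. In the HPV+ clone 10 were called (6 higher, 4 lower), beside 8.0% of all genes.

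Some genes of this wider list, induced or not, moved with the targets above and some against them in the same clone. In the HPV- clone the genes with the smallest p were IRF1, the interferon regulatory factor, NINJ1, which ruptures the membranes of dying cells, and C3, the central complement protein, with log2 fold changes of 1.30, 1.69 and 4.47. Lower there were BMP2, a bone morphogenetic protein, PDLIM2, a ligase that degrades p65, and MAP3K14, the NIK kinase of the non-canonical pathway, at -3.33, -3.48 and -1.485. In the HPV+ clone ATF3, a stress-induced factor, and PLAUR, the urokinase receptor, were higher by 2.42 and 2.003. Both were lower in the HPV- clone, at -1.77 and -1.55, and called. Lower in the HPV+ clone were BMP2, GADD45B and EFNA1, at -1.36, -1.34 and -1.33, of which GADD45B encodes a stress-response protein and EFNA1 an ephrin ligand. BMP2 thus fell in both clones, to 0.71 and 0.75 CPM in the HPV- resistant clone, against 6.09 and 8.57 CPM in HPV- parental cells, and to 29.5 and 28.4 CPM in the HPV+ resistant clone, against 76.8 and 71.8 CPM in HPV+ parental cells.

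Most of the other 50 chemokines and chemokine receptors were silent, and 15 were tested. In the HPV- clone 3 of the 15 were called (1 higher, 2 lower), beside 11.3% of all genes. In the HPV+ clone 2 of the 15 were called (1 higher, 1 lower), beside 8.0% of all genes. In the HPV- clone ACKR3, a scavenging receptor, rose to 130 and 142 CPM, against 59.9 and 51.5 CPM in HPV- parental cells. CXCL14, a chemokine of epithelia, fell to 4 counts, against 127, and CXCL10, an interferon-induced chemokine, to 17 counts, against 99. These 3 calls were each lost whenever any single HPV- library was left out, with adjusted p of 0.0688 to 0.102 for ACKR3, 0.0521 to 0.155 for CXCL14 and 0.0835 to 0.147 for CXCL10. In the HPV+ clone CCL26, an eosinophil chemokine, rose to 45 counts, against 2, a ratio of 22.9 (exact 95% counting interval 5.98 to 195). CXCR4, the receptor for CXCL12, fell to 0 counts, against 52 in HPV+ parental cells, so that it was at least 17.0-fold lower. Without HPV+ parental replicate 1, HPV+ parental replicate 2 or HPV+ resistant replicate 2 the CCL26 call was lost, at adjusted p of 0.145, 0.133 and 0.0598. The CXCR4 call was lost without HPV+ parental replicate 1, HPV+ resistant replicate 1 or HPV+ resistant replicate 2, at 0.0763, 0.0656 and 0.0713.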

How the data were processed

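Polyadenylated RNA of 8 libraries, 2 in each of 4 groups, was sequenced. The authors quantified reads with Salmon on GRCh38 and deposited estimated counts and TPM per transcript. Which Salmon version and transcript annotation they used is not given in the sources at hand. The estimated counts were summed per gene by GENCODE 44 and rounded. Unmatched transcripts (14882 of 187432) held 4.325 to 5.126% of counts and were left out. Deposited TPM were summed per gene only to compare levels between genes.

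Main fit: edgeR 4.0.16 (robust quasi-likelihood, TMM, filterByExpr) on all 8 libraries with 1 coefficient per group, in R 4.3.3, with Benjamini-Hochberg adjustment over 15221 genes and a call at adjusted p below 0.05 and absolute log2 fold change above 1. The code was tested on simulated data. Alternatives included DESeq2 1.42.0, other scalings and filters, an offset for transcript length, a replicate block and leaving out each library. For groups at 0 counts a floor of 3 counts over the group gave a bound, and at 1 to 3 counts the ratio has an exact 95% counting interval. Library values are given for members called in a clone or for the difference, group means for those called only between parental lines, and, of the other lists, up to 3 called genes per direction and clone by smallest p, of which 1 is not reported here. Members and lists were chosen with earlier results of these data known. NFKBIB and RNF31 were not analysed here.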

Additional observations from a re-analysis of the deposited data

Results flagged for a closer look

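For 7 of 36 tested members (19.4%, beside 11.7% of all genes) the change in the HPV+ clone differed from the change in the HPV- clone by edgeR's test of that difference (log2 scale, HPV+ change minus HPV- change). RBCK1, the LUBAC subunit, had a difference of 2.13, and RIPK2, the NOD-receptor kinase, one of 1.3. TNFRSF1A, the TNF receptor, stood at -1.27, IKBKB, the IkB kinase, at -1.16 and NFKBIE, the IkB-epsilon gene, at -1.2. Among the targets CSF1 stood at -4.68 and ICAM1 at -5.1. In the HPV+ line CSF1 had 7 counts in the resistant clone and 20 in parental cells, and ICAM1 had 0 and 3, which allows no HPV+ fold. Both passed the expression filter only through the HPV- groups, so the share of 19.4% was in part fixed. The differences of NFKBIE and ICAM1 were lost when any of 6 libraries was left out, that of CSF1 without HPV+ parental replicate 2 (-3.42) and that of IKBKB without HPV- parental replicate 2 (-0.99), while those of RBCK1, TNFRSF1A and RIPK2 kept their call without any single library. The lines differ in donor, HPV status and cisplatin dose, which cannot be told apart.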

How the results depend on the processing

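Of 37 named member calls, 19 were lost under no alternative; of 649 alternative values 590 kept direction and call, 59 lost the call and 0 reversed. Testing against a log2 fold change of 1 left 330 genes and 2 targets in the HPV- clone, 223 genes, 1 component and 0 targets in the HPV+ clone, and 500 genes, 1 component and 1 target for the difference between the lines. With no minimum fold change, 4081 genes and 6 components were called in the HPV- clone, 2759 genes and 7 components in the HPV+ clone, and 8821 genes and 17 components between the parental lines. The HPV- component count was 1 with the 4 libraries of the comparison alone, with the length offset and with no filter (RIPK2 each time), and the HPV+ count was 2 with the length offset. A 5 CPM filter left 4 targets called between the parental lines, with fewer genes tested. Except for that filter, the cause of these moves was not tested. DESeq2 called 0 and 4 components in the HPV- and HPV+ clones and 7 for the difference, where it added NFKBIZ and TNFAIP3.

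Leaving out each library in turn gave 1180 to 1904 genes, 0 to 1 components and 3 to 4 targets in the HPV- clone. In the HPV+ clone it gave 566 to 1267 genes, 3 to 4 components and 0 to 3 targets, with 566 genes without HPV+ parental replicate 1. For the difference it gave 1193 to 1998 genes, 3 to 7 components and 0 to 3 targets, and between the parental lines 5065 to 5837 genes, 10 to 12 components and 7 to 9 targets. Where 1 library of a group was left, its spread was assumed to be that of the other groups.

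Replicate numbers did not pair the samples (correlations of deviations -0.074, -0.015 and 0.142). With a replicate block, 1616 genes, 0 components and 4 targets were called in the HPV- clone, 1123, 4 and 3 in the HPV+ clone, 1664, 4 and 2 for the difference, where NFKBIE was lost, and 5540, 10 and 9 between the parental lines. Few counts limit CXCL8, IL6, LIF, TNFAIP3 and TNFAIP2 in the HPV+ line and most chemokines in both lines.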
